A study of Mus musculus with 12 samples.

Results

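The comparison described here asks which genes respond to Myc differently in mouse myeloid progenitors labelled as lacking Zfx. The quantity reported is the interaction: the log2 Myc response in the arrays labelled Zfx ko minus the log2 Myc response in the arrays labelled Zfx wt. All 12 of the study's 12 gene arrays enter it, as 4 groups of 3. The progenitors were c-Kit+ marrow cells of male mice, either Zfx wt/y CreER or Zfx fl/y CreER. Every group thus had the tamoxifen-inducible recombinase CreER, the controls included, and the floxed groups had a Zfx allele that Cre can delete. All mice received 5 mg of tamoxifen daily by gavage for 3 days. Both genotypes received either a Myc retrovirus marked with GFP or a GFP control retrovirus, which gives the groups Myc Zfx wt, Myc Zfx ko, GFP Zfx wt and GFP Zfx ko. GFP+ cells were sorted after 48 hours, and RNA was taken after 4 more days in RPMI medium containing 20% FBS and 10 ng/mL of each of SCF, IL-6 and IL-3. Myc was thus overexpressed from a virus in cultured cells, and the GFP groups still expressed their own Myc. The group of each array comes from its title, and nothing in the labels says whether arrays of equal number share an animal, a culture or a day, so p-values measure the spread between these arrays, which may be technical.

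Myc is a transcription factor that pairs with Max, binds E-box sequences, and is best known for raising genes of ribosome assembly, nucleotide synthesis and cell growth while differentiation genes fall. Zfx is a zinc finger transcription factor encoded on the X chromosome, with relatives Zfy1 and Zfy2 on the Y chromosome. It binds mainly near transcription start sites and is known for sustaining the self-renewal of blood stem cells and of myeloid leukaemia. A gene whose Myc response is the same in both genotypes has an interaction of 0, a negative value means a Myc response that is lower (less of a rise or more of a fall) in the ko arrays, and a positive value one that is higher.

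Across 19938 genes, 1 gene passed an adjusted p of 0.05 for the interaction, which is 0.00502% (limma with the array number as a block, Benjamini-Hochberg adjustment). It was Nck2, an adaptor that links activated tyrosine kinase receptors to the actin cytoskeleton, and its Myc response was lower in the ko arrays. No gene passed with a higher response. At an unadjusted p under 0.05 there were 939 genes (4.71%), 467 of them higher (2.34%) and 472 lower (2.37%). The same fit called far more genes for each Myc response on its own: 4082 genes (20.5%; 12.2% higher and 8.25% lower) in the wt arrays and 4959 (24.9%; 14.5% higher and 10.4% lower) in the ko arrays. For the genotype it called 12.2% of genes with GFP (5.12% higher and 7.12% lower in ko) and 14.1% with Myc (6.05% higher and 8.03% lower). The number of genes called for the interaction therefore was small beside both of the responses it compares, although the interaction is measured less precisely than they are.

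**Figure D1:**
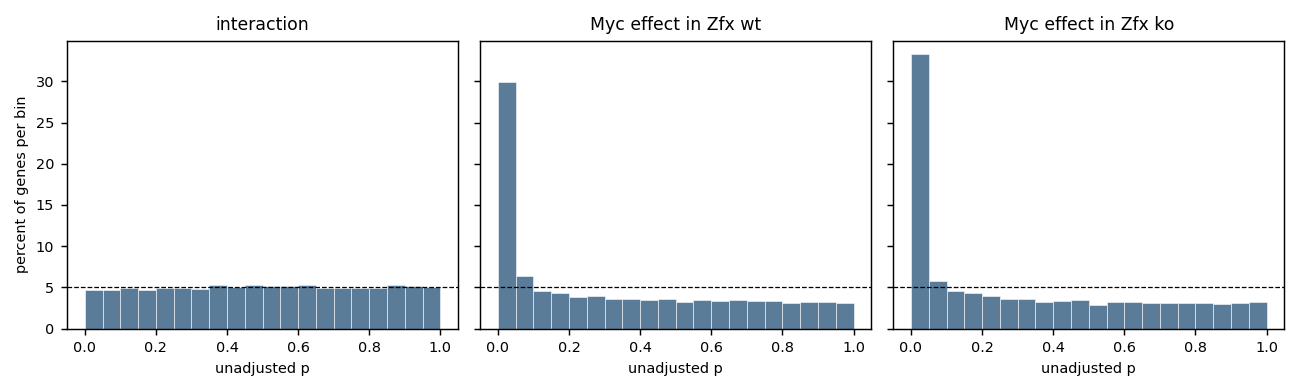
Histograms of unadjusted limma p-values over 19938 genes in bins of 0.05 (x axis) as percent of genes (y axis), for the interaction and for the Myc effect in each genotype; the dashed line marks 5% of genes per bin. The interaction has 4.71% of genes in its lowest bin, against 30.0% for Myc in the wt arrays and 33.3% for Myc in the ko arrays.

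A p that misses the threshold does not show that the responses were alike, so the intervals were counted too. The 95% interval of the interaction had a median half-width of 0.21 on the log2 scale, a factor of 1.16. For the Myc response in the wt arrays the median half-width was 0.15. For 17686 genes (88.7%) the whole interval lay within 0.5 log2 of 0, and for 19537 genes (98%) within 1 log2 of 0. Estimates of at least 1 log2 from 0 were found for 38 genes (0.191%), estimates above 0 for 51.4% of genes, and the same sign in all 3 numbers for 29.7%. The intervals are those of single genes and were not adjusted over genes. These bounds limit the difference between genotypes and not its share of the response: most Myc responses were themselves smaller than 0.5 log2, so a response present in 1 genotype and absent in the other could lie within them.

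The probe sets of the manipulated genes were examined first. Zfx read 946 ± 72.9 in GFP Zfx wt, 992 ± 26.4 in Myc Zfx wt, 1021 ± 64.9 in GFP Zfx ko and 1048 ± 63.2 in Myc Zfx ko (intensity, SD, n = 3 in each group). The ko arrays were not lower than the wt arrays, and the genotypes overlapped with either virus. Which part of the transcript the Zfx probes read is not given in the sources used here, so this value checks nothing about the deletion, and wt and ko below are the submitters' labels. Zfy1 read 35.9 ± 1.51 in GFP Zfx wt and 35.9 ± 0.677 in Myc Zfx ko, and Zfy2 read 27.2 ± 0.585 and 26.8 ± 3.98 in the same groups (SD, n = 3), so both stayed below the lowest array median of 127. Myc read 3014 ± 197 with GFP and 5231 ± 343 with Myc in the wt arrays, a 1.74-fold rise, and 2701 ± 145 and 5046 ± 260 in the ko arrays, a 1.87-fold rise (SD, n = 3). The interaction of Myc itself was 0.11 on the log2 scale with a 95% interval of -0.03 to 0.24, so the rise in Myc signal was similar in both genotypes, and the same-number values were 0.11, 0.10 and 0.11. With GFP, the Myc signal was 1.12-fold lower in the ko than in the wt arrays (limma adjusted p = 0.0395), although the groups overlapped. With the Myc virus the genotypes did not differ detectably (limma adjusted p = 0.562).

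Nck2, on chromosome 1, moved in opposite directions. In the wt arrays its intensity was 327, 382 and 443 with GFP and 380, 427 and 562 with Myc for numbers 1, 2 and 3. In the ko arrays it was 343, 390 and 498 with GFP and 227, 262 and 351 with Myc. Each Myc array of the wt genotype was above, and each Myc array of the ko genotype below, the GFP array of its own number, although the groups overlapped when the numbers were ignored. Nck2 rose 1.18-fold with Myc in the wt arrays (adjusted p = 0.00909) and fell 1.47-fold in the ko arrays (adjusted p = 1.8e-04). The interaction was -0.80 ± 0.07 on the log2 scale (SE, 3 arrays per group; 95% interval -0.96 to -0.64; limma adjusted p = 0.0198), and the values by number were -0.82, -0.73 and -0.85. With GFP alone the genotypes did not differ detectably in Nck2 (log2 difference 0.09, adjusted p = 0.343), and with Myc the ko arrays were 1.63-fold lower (adjusted p = 4.6e-05). The call depended on the block: without the array number in the model the estimate was the same and the limma adjusted p was 0.9999, and with the number as a random effect it was 0.487.

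The promoters of the genes with the lowest interaction p were searched for AGGCCT, the core of the reported Zfx motif, which reads the same on both strands, and for CACGTG, the E-box that Myc and Max prefer and that also reads the same on both strands. Promoters of 9 of the 10 genes were in the RefSeq table (GRCm38.p6), and the window was the 250 bases before the start. AGGCCT was present in 2 of the 9, Nck2 and Cenpv, and in any listed window of the same length for 9.89% of 27025 genes. CACGTG was present in 0 of the 9 and, counted in the same way, for 6.86% of the 27025 genes. Both promoters that held AGGCCT are shown, since they are the promoters among the 9 in which the letters occur and 1 of them belongs to the called gene; the motif is in capitals. The Nck2 window is chr1:43445501-43445750 on the plus strand, with the motif's first base 111 bases before the start, and the Cenpv window is chr11:62539262-62539511 on the minus strand, with the motif's first base 240 bases before it.
Nck2: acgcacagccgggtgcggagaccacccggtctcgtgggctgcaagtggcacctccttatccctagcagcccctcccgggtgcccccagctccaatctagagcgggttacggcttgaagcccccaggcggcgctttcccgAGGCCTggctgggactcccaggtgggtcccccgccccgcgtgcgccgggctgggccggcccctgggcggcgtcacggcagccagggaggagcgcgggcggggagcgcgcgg
Cenpv: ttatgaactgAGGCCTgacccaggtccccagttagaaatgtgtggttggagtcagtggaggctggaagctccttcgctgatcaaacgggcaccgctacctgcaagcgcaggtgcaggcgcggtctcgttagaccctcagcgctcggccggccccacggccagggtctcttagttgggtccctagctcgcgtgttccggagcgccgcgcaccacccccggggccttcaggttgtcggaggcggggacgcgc
These matches describe the letters in the windows and are not sites of measured binding.

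The other 9 of the 10 genes of lowest p missed the adjusted threshold, with adjusted p from 0.0720 to 0.255, and are given as values. They fell into patterns that the group values show directly. Lgr4 and Ms4a2 rose with Myc in the wt arrays without passing the test in the ko arrays. Pkhd1l1, Arpin and Tshz3 passed the test for Myc in the ko arrays and not in the wt arrays. Npy, Cenpv and Trp53i11 passed in both genotypes in the same direction with unequal sizes, and Zc3h7b passed in both with opposite directions.

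Lgr4, on chromosome 2, is a receptor for R-spondins that strengthens Wnt signalling. Its intensity was 62.2, 57.8 and 63.1 with GFP and 123, 166 and 149 with Myc in the wt arrays. In the ko arrays it was 40.3, 41.6 and 42.1 with GFP and 43.5, 47.5 and 50.7 with Myc. The wt Myc arrays stood apart from all the others, and the ko arrays of both viruses lay below every wt array. All but the wt Myc arrays of numbers 2 and 3 were below the lowest array median of 127, so the folds of Lgr4 rest on dim readings. Lgr4 rose 2.38-fold with Myc in the wt arrays (adjusted p = 1.1e-04), while in the ko arrays the ratio was 1.14-fold (adjusted p = 0.153). The interaction was -1.06 ± 0.12 on the log2 scale (SE; limma adjusted p = 0.0720), and the ko level was also 1.48-fold lower with GFP alone (adjusted p = 0.00275).

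Ms4a2, on chromosome 19, encodes the beta chain of the high-affinity IgE receptor of mast cells and basophils. In the wt arrays it read 686, 615 and 906 with GFP and 1187, 1654 and 2533 with Myc. In the ko arrays it read 431, 367 and 435 with GFP and 283, 337 and 371 with Myc. Each ko Myc array lay below the ko GFP array of its number and each wt Myc array above its wt counterpart. Ms4a2 rose 2.35-fold with Myc in the wt arrays (adjusted p = 0.00115), and the ko response was -0.32 on the log2 scale (adjusted p = 0.226). The interaction was -1.55 ± 0.24 (SE; limma adjusted p = 0.189), with -1.40, -1.55 and -1.72 for the 3 numbers.

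Npy, on chromosome 6, encodes the secreted peptide neuropeptide Y. It read 418, 968 and 721 with GFP and 188, 218 and 304 with Myc in the wt arrays. In the ko arrays it read 2664, 2929 and 3715 with GFP and 233, 317 and 359 with Myc. The ko GFP arrays were far above all the others, and the Myc arrays of both genotypes lay close together and overlapped. With Myc, Npy fell 2.86-fold in the wt arrays (adjusted p = 6.6e-04) and 10.3-fold in the ko arrays (adjusted p = 2.8e-05). The interaction was -1.85 ± 0.25 (SE; limma adjusted p = 0.124). The genotype difference was 4.63-fold with GFP (adjusted p = 7.9e-05) and 1.29-fold with Myc (adjusted p = 0.241).

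Tshz3, on chromosome 7, encodes a zinc finger transcription factor of the teashirt family. It read 157, 175 and 151 with GFP and 138, 175 and 183 with Myc in the wt arrays, and 352, 457 and 426 with GFP and 191, 250 and 242 with Myc in the ko arrays. The ko GFP arrays were the highest of the 12, the ko Myc arrays were intermediate, and the wt arrays of both viruses overlapped. Tshz3 fell 1.81-fold with Myc in the ko arrays (adjusted p = 1.9e-04), against a log2 response of 0.03 in the wt arrays (adjusted p = 0.885). The interaction was -0.88 ± 0.11 (SE; limma adjusted p = 0.124).

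Cenpv, on chromosome 11, encodes a centromere protein. It read 2361, 2530 and 2512 with GFP and 3743, 3768 and 4305 with Myc in the wt arrays, and 417, 592 and 480 with GFP and 1492, 1525 and 1751 with Myc in the ko arrays. The 4 groups did not overlap, and the Myc arrays were higher in both genotypes. Cenpv rose 1.59-fold with Myc in the wt arrays (adjusted p = 0.00156) and 3.23-fold in the ko arrays (adjusted p = 4.1e-05). The interaction was 1.02 ± 0.14 (SE; limma adjusted p = 0.124). The ko level was 5.02-fold lower with GFP and 2.48-fold lower with Myc, so the ko Myc arrays still lay below the wt GFP arrays.

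Zc3h7b, on chromosome 15, encodes a zinc finger protein that binds RNA. It read 831, 767 and 884 with GFP and 1184, 918 and 1254 with Myc in the wt arrays, and 212, 182 and 193 with GFP and 176, 146 and 157 with Myc in the ko arrays. The ko arrays were far below the wt arrays with either virus, and within each genotype the virus groups did not overlap. Zc3h7b rose 1.34-fold in the wt arrays (adjusted p = 0.00387) and fell 1.22-fold in the ko arrays (adjusted p = 0.0183). The interaction was -0.72 ± 0.11 (SE; limma adjusted p = 0.189).

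Pkhd1l1, on chromosome 15, encodes a large membrane protein related to fibrocystin. It read 50.1, 52.1 and 48.3 with GFP and 61.5, 57.8 and 55.6 with Myc in the wt arrays, and 61.7, 61.0 and 53.1 with GFP and 104, 127 and 128 with Myc in the ko arrays. The ko Myc arrays stood above all the others, at levels below the median of all probe sets. Pkhd1l1 rose 2.04-fold with Myc in the ko arrays (adjusted p = 1.3e-04), and the wt response was 0.22 on the log2 scale (adjusted p = 0.122). The interaction was 0.81 ± 0.12 (SE; limma adjusted p = 0.189).

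Arpin, on chromosome 7, encodes an inhibitor of the complex that nucleates branched actin. It read 115, 131 and 112 with GFP and 126, 132 and 118 with Myc in the wt arrays, and 129, 151 and 145 with GFP and 227, 353 and 355 with Myc in the ko arrays. Here too the ko Myc arrays alone were high, and the wt arrays of both viruses overlapped. Arpin rose 2.16-fold in the ko arrays (adjusted p = 3.4e-04), with a log2 response of 0.07 in the wt arrays (adjusted p = 0.787) and an interaction of 1.04 ± 0.17 (SE; limma adjusted p = 0.255).

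Trp53i11, on chromosome 2, is named as a p53-inducible gene. It read 379, 302 and 394 with GFP and 204, 153 and 201 with Myc in the wt arrays, and 258, 174 and 250 with GFP and 176, 153 and 189 with Myc in the ko arrays. The wt GFP arrays were the highest, and the Myc arrays of both genotypes overlapped. Trp53i11 fell 1.93-fold with Myc in the wt arrays (adjusted p = 1.1e-04) and 1.30-fold in the ko arrays (adjusted p = 0.00225), and the interaction was 0.57 ± 0.09 (SE; limma adjusted p = 0.238). Each of the 10 genes rests on 1 probe set.

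**Figure D2:**
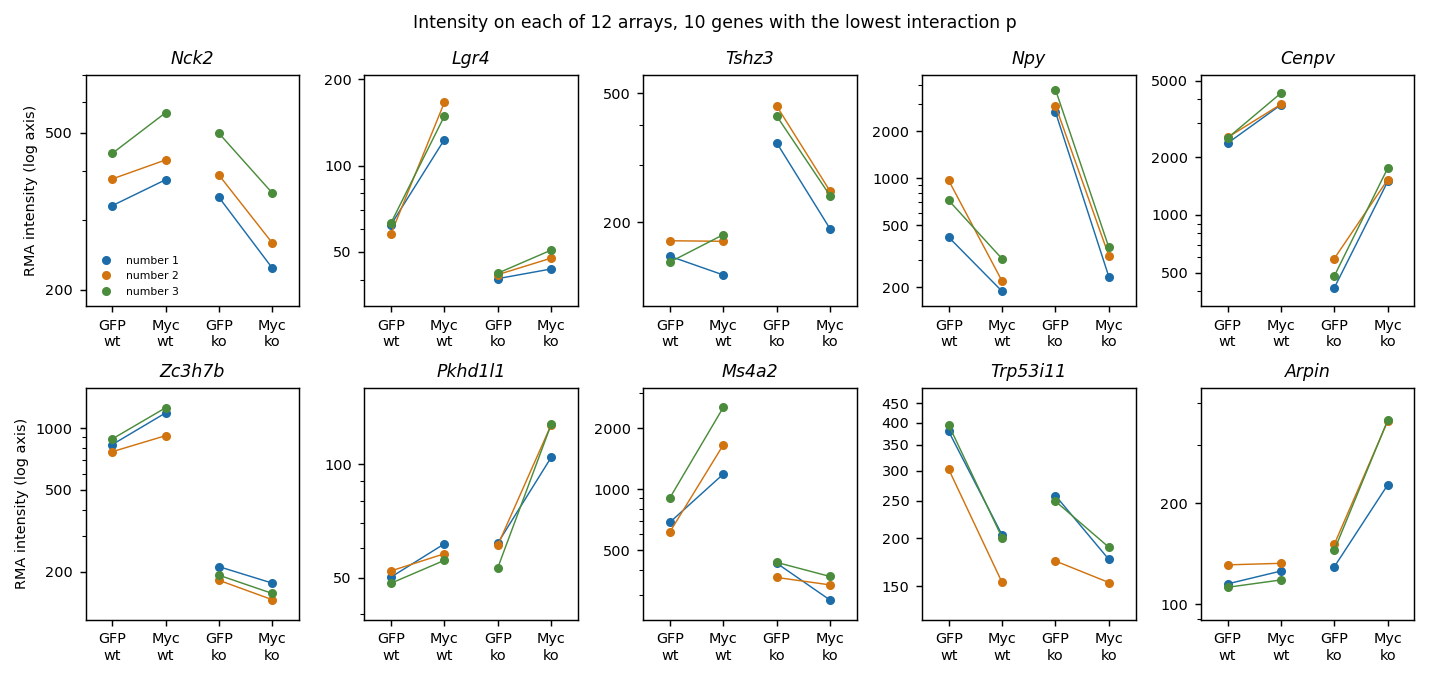
Intensity (log y axis) of the 10 genes of lowest interaction p in the 4 groups; each point is 1 array, and lines join arrays of equal number between the GFP and Myc groups of a genotype. The lines of Nck2 slope up in the wt arrays and down in the ko arrays, and the ko GFP arrays of Npy lie at 2664 to 3715, above all of its other arrays.

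The Myc responses of both genotypes were then set side by side over all genes. They share no arrays, although they share the 3 numbers. Both came from 1 fit, so each gene had the same estimate of spread in both. The calls of both genotypes are therefore not independent, and a gene of low spread is more easily called in both. Of the 4082 genes called in the wt arrays and the 4959 called in the ko arrays, 3377 were called in both, which is 82.7% of the wt calls and 68.1% of the ko calls. Of these, 3375 had the same direction and 2, Nck2 and Zc3h7b, had opposite directions. Another 705 genes were called in the wt arrays only and 1582 in the ko arrays only, but 0 of these 2287 genes passed the adjusted threshold for the interaction, and 146 and 333 of them had an unadjusted limma p under 0.05. Being called in 1 genotype is thus not a measured difference between genotypes. The estimates had the same sign in both genotypes for 2161 of the 2287 (94.5%). Across the 19938 genes the log2 responses correlated at r = 0.867, a description only, since genes are not independent replicates.

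**Figure D3:**
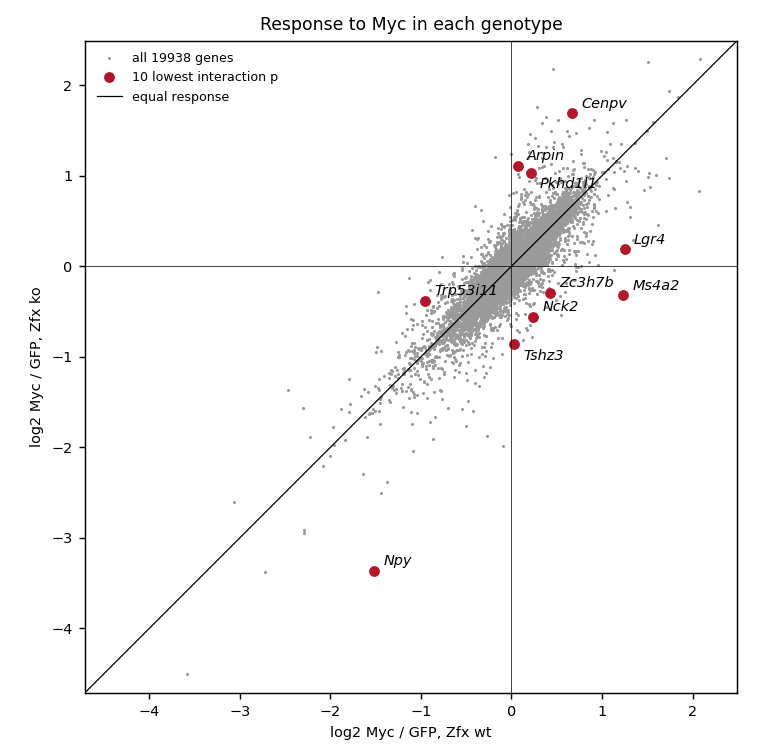
Log2 Myc response in the wt arrays (x axis) against the log2 Myc response in the ko arrays (y axis) for 19938 genes, each point 1 gene, with the 10 genes of lowest interaction p named and the line of equal response drawn. Most genes lie along the line, and Npy and Cenpv lie off it with responses of -1.52 and 0.67 in the wt arrays and -3.37 and 1.69 in the ko arrays.

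The size of the Myc response was also compared over the genes that passed the test for the Myc response averaged over both genotypes, a description added after the values were seen. The 3670 genes raised on average (18.4%) had a median log2 response of 0.29 in the wt arrays and 0.33 in the ko arrays, and a median interaction of 0.04. The 2710 genes lowered on average (13.6%) had medians of -0.31 and -0.37 and a median interaction of -0.05. By number, the median interaction of the raised genes was 0.08, 0.06 and -0.04, so its sign was not the same in every set of arrays, and that of the lowered genes was -0.04, -0.01 and -0.09. The interval lay within 0.5 log2 of 0 for 86.8% of the raised and 72.2% of the lowered genes. The estimates of single genes carried some of the same pattern in each set of arrays: across genes, the interaction from 1 number correlated with that from another at r = 0.20, 0.20 and 0.31.

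Gene lists were then read for the interaction by their counts and medians, beside the median over all genes of 0.00. Counts of members that rose or fell with Myc stand beside the shares of all genes that did so. These were 12.2% higher and 8.25% lower in the wt arrays, and 14.5% higher and 10.4% lower in the ko arrays. In each of the 38 lists, 0 members passed the adjusted threshold for the interaction, and Nck2 is in none of them; members named below were chosen for a low unadjusted p or as well-known members, after their values were seen. The lists hold 719 genes in all, of which 62 (8.62%) had an unadjusted limma p under 0.05, 35 higher and 27 lower, against 4.71% of all genes. The share was 7.71% for the genes raised and 8.27% for those lowered by Myc on average. Those genes passed a test from the same arrays and estimates of spread, which favours a low interaction p. Their shares therefore do not decide whether the share is particular to the lists. The lists were uneven: 11 of 27 erythroid and 7 of 36 DNA replication genes were higher at this p, and 0 of 17 citrate cycle genes were. The lists were also chosen with earlier results of these data known.

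Genes of growth, the group for which Myc is best known, rose with Myc in both genotypes. All 45 measured genes of ribosome biogenesis rose with Myc in the wt arrays and all 45 in the ko arrays, with median log2 responses of 0.60 and 0.59. Their median interaction was 0.03, and the interval of 42 of the 45 lay within 0.5 log2 of 0, near the share of all genes (88.7%). Rrp9, which acts in the processing of ribosomal RNA, read 997 ± 38.6 with GFP and 1896 ± 262 with Myc in the wt arrays and 921 ± 84.4 and 1746 ± 262 in the ko arrays (SD, n = 3). It rose 1.89-fold in each genotype, and its interaction interval was -0.20 to 0.20. Fbl, the methyltransferase of box C/D ribonucleoproteins, rose 1.47-fold and 1.42-fold, and Ncl, which encodes nucleolin, rose 1.27-fold and 1.26-fold. By number the median of the list was 0.13, 0.04 and -0.12, without a common sign.

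All 18 cytosolic tRNA synthetases rose in both genotypes, with a median interaction of 0.05 and all 18 intervals within 0.5 log2 of 0. Of 25 genes of nucleotide synthesis, 19 rose in each genotype and 1 fell, with medians of 0.56 and 0.50. Cad, the enzyme that starts pyrimidine synthesis, rose 1.51-fold in the wt and 1.62-fold in the ko arrays, with an interaction of 0.10 and an interval of -0.16 to 0.36. Odc1, the enzyme that starts polyamine synthesis, rose 1.57-fold and 1.61-fold, with an interaction of 0.03.

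Mitochondrial groups were next. Of 40 genes of the mitochondrial ribosome, 32 rose in the wt and 35 in the ko arrays, with a median interaction of 0.06 and 36 intervals within 0.5 log2 of 0, again near the 88.7% of all genes. All 17 genes of the citrate cycle and all 26 of the respiratory chain had intervals within 0.5 log2 of 0, with medians of 0.02 and 0.03. Idh2, the mitochondrial isocitrate dehydrogenase and a gene reported to depend on Zfx in leukaemia, read 3246 ± 59.5 with GFP and 3730 ± 241 with Myc in the wt arrays and 2012 ± 176 and 2082 ± 150 in the ko arrays (SD, n = 3). The ko arrays were lower with either virus, and the interaction of Idh2 was -0.15 with an interval of -0.38 to 0.08. Ptpmt1, a mitochondrial phosphatase of cardiolipin synthesis and reported to depend on Zfx as well, read 896, 1154 and 936 with GFP and 1380, 1394 and 1281 with Myc in the wt arrays. In the ko arrays it read 282, 423 and 347 with GFP and 565, 700 and 679 with Myc. It rose with Myc 1.37-fold in the wt arrays (adjusted p = 0.00882) and 1.86-fold in the ko arrays (adjusted p = 3.1e-04). The interaction of Ptpmt1 was 0.45 with an interval of 0.15 to 0.75 (limma adjusted p = 0.976), and the ko Myc arrays did not reach the wt GFP arrays.

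Among genes of glycolysis and cholesterol synthesis none passed the interaction threshold, and 0 had an unadjusted limma p under 0.05. Of 19 glycolysis genes, 9 rose with Myc in the wt arrays and 4 in the ko arrays, against 12.2% and 14.5% of all genes. An interaction above 0 was found for 4 of the 19, against 51.4% of all genes, with a median of -0.14. The median by number was 0.02, -0.06 and -0.34, and number 3 gave the value farthest from 0. Without Myc Zfx wt replicate 3 the median was -0.072, and without all arrays of number 3 it was -0.0089. Ldha, which encodes lactate dehydrogenase, rose 1.24-fold in both genotypes with an interval of -0.20 to 0.21. Pfkl, a phosphofructokinase, rose 1.51-fold in the wt and 1.24-fold in the ko arrays, with an interaction of -0.28 and an interval of -0.57 to 0.02. Of 18 genes of cholesterol synthesis, 5 rose in the wt and 2 in the ko arrays, the latter near the 14.5% of all genes. The list had 1 interaction above 0, a median of -0.14 and values by number of -0.10, 0.01 and -0.32. Its median was -0.068 without GFP Zfx ko replicate 1, -0.094 without Myc Zfx wt replicate 3, -0.088 without Myc Zfx ko replicate 3, -0.22 without Myc Zfx wt replicate 1, -0.24 without GFP Zfx ko replicate 2 and -0.031 without number 3, with 0 to 7 members lower at an unadjusted p under 0.05.

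Genes of DNA replication had small interactions, nearly all above 0. Of 36 members, 7 rose with Myc in the wt arrays and 20 in the ko arrays, against 12.2% and 14.5% of all genes. Their median log2 responses were 0.10 and 0.21. The interaction was above 0 for 35 of the 36, against 51.4% of all genes, with a median of 0.14 and a highest value of 0.27, and 7 members were higher at an unadjusted p under 0.05, against 2.34% of all genes. The count of 7 was 1 without the block and 0 to 12 over all 24 alternatives: it was 3 without GFP Zfx wt replicate 1, 4 without GFP Zfx ko replicate 1 or Myc Zfx ko replicate 3, 11 without GFP Zfx wt replicate 3 and 12 without GFP Zfx ko replicate 3. The median by number was 0.19, 0.10 and 0.08, above 0 in every set of arrays, and without GFP Zfx ko replicate 1 it was 0.080. Prim1, the catalytic subunit of primase, read 974, 1110 and 983 with GFP and 1056, 1262 and 1059 with Myc in the wt arrays, and 846, 1037 and 1028 with GFP and 1153, 1444 and 1266 with Myc in the ko arrays. The ko Myc arrays were above the ko GFP arrays, while the wt groups overlapped. Its Myc response was 0.14 in the wt arrays (adjusted p = 0.168) and it rose 1.33-fold in the ko arrays (adjusted p = 0.00124), with an interaction of 0.27 (limma adjusted p = 0.976). Gins2, a subunit of the replicative helicase complex, and Mcm2, a subunit of the helicase itself, had interactions of 0.21 and 0.18. Of 27 genes of mitosis, 24 were above 0 as well, with a median of 0.06, and all 27 intervals lay within 0.5 log2 of 0, so the values were small in both lists.

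Lists of the cell types that such cultures can hold came next. In bulk RNA, fewer cells of a type and less RNA per cell cannot be told apart. Of 27 erythroid genes, 6 rose and 1 fell with Myc in the wt arrays, and 19 rose and 1 fell in the ko arrays. Over all genes, 12.2% rose in the wt and 14.5% in the ko arrays. The median log2 responses of the list were 0.25 and 0.66. The interaction was above 0 for 25 of the 27, the median was 0.42, and 11 were higher at an unadjusted p under 0.05, against 2.34% of all genes; the interval lay within 0.5 log2 of 0 for 6. The median intensity of the list by number was 193 to 216 in GFP Zfx wt, 221 to 348 in Myc Zfx wt, 203 to 353 in GFP Zfx ko and 480 to 1110 in Myc Zfx ko, so the ko Myc arrays lay above all the others. The median interaction by number was 0.18, 0.35 and 0.67, above 0 in each but unequal. It was 0.24 without Myc Zfx ko replicate 3 and 0.60 without Myc Zfx ko replicate 1. The count of 11 was 4 without GFP Zfx wt replicate 1, 5 without GFP Zfx ko replicate 3, 6 without GFP Zfx ko replicate 2 or Myc Zfx wt replicate 3, 7 without Myc Zfx wt replicate 1 or GFP Zfx wt replicate 2, and 15 without Myc Zfx ko replicate 1 or GFP Zfx wt replicate 3.

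Among the erythroid genes, Kel, the Kell blood group glycoprotein, read 79.9, 85.4 and 76.5 with GFP and 92.9, 105 and 80.7 with Myc in the wt arrays, and 124, 112 and 92.5 with GFP and 205, 243 and 358 with Myc in the ko arrays. The ko Myc arrays were the highest of the 12. All other Kel readings were below the lowest array median of 127, so its folds rest on dim readings. Kel rose 2.41-fold with Myc in the ko arrays (adjusted p = 0.00129), with a wt response of 0.20 (adjusted p = 0.596) and an interaction of 1.07 ± 0.27 (SE; limma adjusted p = 0.825). Slc4a1, the anion exchanger of the red cell membrane, read 140, 216 and 142 with GFP and 155, 348 and 206 with Myc in the wt arrays, and 136, 203 and 153 with GFP and 221, 1137 and 1572 with Myc in the ko arrays. Numbers 2 and 3 of the ko Myc arrays were high and number 1 was not. Its interaction was 1.73 with an interval of 0.33 to 3.12 (limma adjusted p = 0.999). Fech, the ferrochelatase that ends haem synthesis, rose 1.61-fold in the ko arrays and had an interaction of 0.60, and Car2, a carbonic anhydrase, rose 2.48-fold there and had an interaction of 0.93. Of the transcription factors in the list, Klf1, which drives the erythroid programme, rose 1.82-fold in the wt and 2.88-fold in the ko arrays with an interaction of 0.66 and an interval of -0.10 to 1.43. Gata1, which acts in several lineages, rose 1.76-fold and 1.92-fold with an interaction of 0.13 and an interval of -0.57 to 0.83, which overlaps that of Klf1.

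Of 26 genes of mast cells and basophils, 12 fell and 1 rose with Myc in the wt arrays and 18 fell in the ko arrays, with medians of -0.60 and -0.61. The median interaction was -0.29, with values by number of -0.15, -0.25 and -0.37. At an unadjusted p under 0.05, 5 were lower and 1 was higher, against 2.37% and 2.34% of all genes, and the interval lay within 0.5 log2 of 0 for 4; 9 of the 26 were above 0. The count of 5 lower genes was 2 without the block, 3 without Myc Zfx wt replicate 3 or GFP Zfx wt replicate 3, and 9 without Myc Zfx wt replicate 1. The median was -0.15 without GFP Zfx ko replicate 1, -0.17 without Myc Zfx wt replicate 3 and -0.18 without Myc Zfx ko replicate 1. Fcer1a, the IgE-binding chain of the receptor to which Ms4a2 belongs, read 879, 773 and 1287 with GFP and 495, 1244 and 1179 with Myc in the wt arrays. In the ko arrays it read 929, 817 and 1112 with GFP and 114, 458 and 259 with Myc, and the ko Myc arrays lay below the other 9. Fcer1a fell 3.97-fold with Myc in the ko arrays (adjusted p = 0.00363), with a wt response of -0.09 (adjusted p = 0.922) and an interaction of -1.90 ± 0.52 (SE; limma adjusted p = 0.874). Gata2, a transcription factor of mast cells and of stem cells, had an interaction of -0.86, and Mcpt8, a basophil protease, one of -0.89. The proteases were not all alike: Mcpt4 had an interaction of 0.75, at intensities of 44.4 to 132 that lie near or below the array medians.

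Late neutrophil genes fell with Myc in both genotypes. Of 26 members, 24 fell in the wt and 25 in the ko arrays, with medians of -0.98 and -1.17 and a median interaction of -0.03. Ltf, the granule protein lactoferrin, fell 3.10-fold in the wt and 2.56-fold in the ko arrays, with an interaction of 0.28 and an interval of -0.49 to 1.04. Chil3, a chitinase-like secreted protein, read 5615, 5499 and 7021 with GFP and 3393, 5136 and 4024 with Myc in the wt arrays, and 4378, 4273 and 4257 with GFP and 1168, 1909 and 1349 with Myc in the ko arrays. The ko Myc arrays were the lowest. Chil3 fell 1.46-fold in the wt and 2.98-fold in the ko arrays, with an interaction of -1.03 ± 0.22 (SE; limma adjusted p = 0.612). The interaction was above 0 for 11 of the 26, the interval lay within 0.5 log2 of 0 for 8, against 88.7% of all genes, and the sign of the median changed among the alternatives (-0.18 to 0.21), so these values do not show that the list responded alike in both genotypes.

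Of 18 megakaryocyte and platelet genes, 5 fell with Myc in the wt and 8 in the ko arrays, against 8.25% and 10.4% of all genes. The median interaction was -0.05, and 3 intervals lay within 0.5 log2 of 0. Pf4, a platelet chemokine, read 1594, 3459 and 2443 with GFP and 862, 2785 and 3069 with Myc in the wt arrays, and 6610, 8445 and 8771 with GFP and 2959, 7821 and 7982 with Myc in the ko arrays. Its interaction was -0.18, and 5 of the 6 ko arrays lay above every wt array. Mmrn1, multimerin of platelet granules, read 95.3, 329 and 197 with GFP and 52.7, 92.3 and 73.1 with Myc in the wt arrays, and 444, 798 and 740 with GFP and 75.9, 177 and 139 with Myc in the ko arrays. As with Npy, the ko GFP arrays were the highest and the Myc arrays of both genotypes overlapped. The interaction of Mmrn1 was -1.01 ± 0.22 (SE; limma adjusted p = 0.649), with -1.70, -0.34 and -0.99 by number.

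Most markers of lymphoid cells were dim. Only 2 B cell markers and 1 T and NK cell marker had a mean level above the median of all probe sets. That T and NK cell marker had log2 Myc responses of -1.04 in the wt and -1.43 in the ko arrays, and an interaction of -0.39. The 11 B cell and 10 T and NK cell markers each had a median interaction of -0.01, and their median intensities were 63 to 72 and 59 to 72 over the 12 arrays, below the array medians. Of 13 progenitor markers of the myeloid line, 4 fell in the wt and 9 in the ko arrays, with a median interaction of -0.09. Mpo, the myeloperoxidase that marks these progenitors, read 13569.8 ± 1017 in GFP Zfx wt and 10447 ± 1201 in Myc Zfx ko (SD, n = 3) and had an interaction of -0.09 with an interval of -0.30 to 0.13. Cd34, a surface protein of early progenitors, fell 2.02-fold with Myc in the ko arrays (adjusted p = 0.00339), with a wt response of -0.21 (adjusted p = 0.562) and an interaction of -0.81 (limma adjusted p = 0.976), and its values by number were 0.06, -1.05 and -1.45, so number 1 did not share the sign. The part that shifts in cell types have in the interactions above was not tested.

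**Figure D4:**
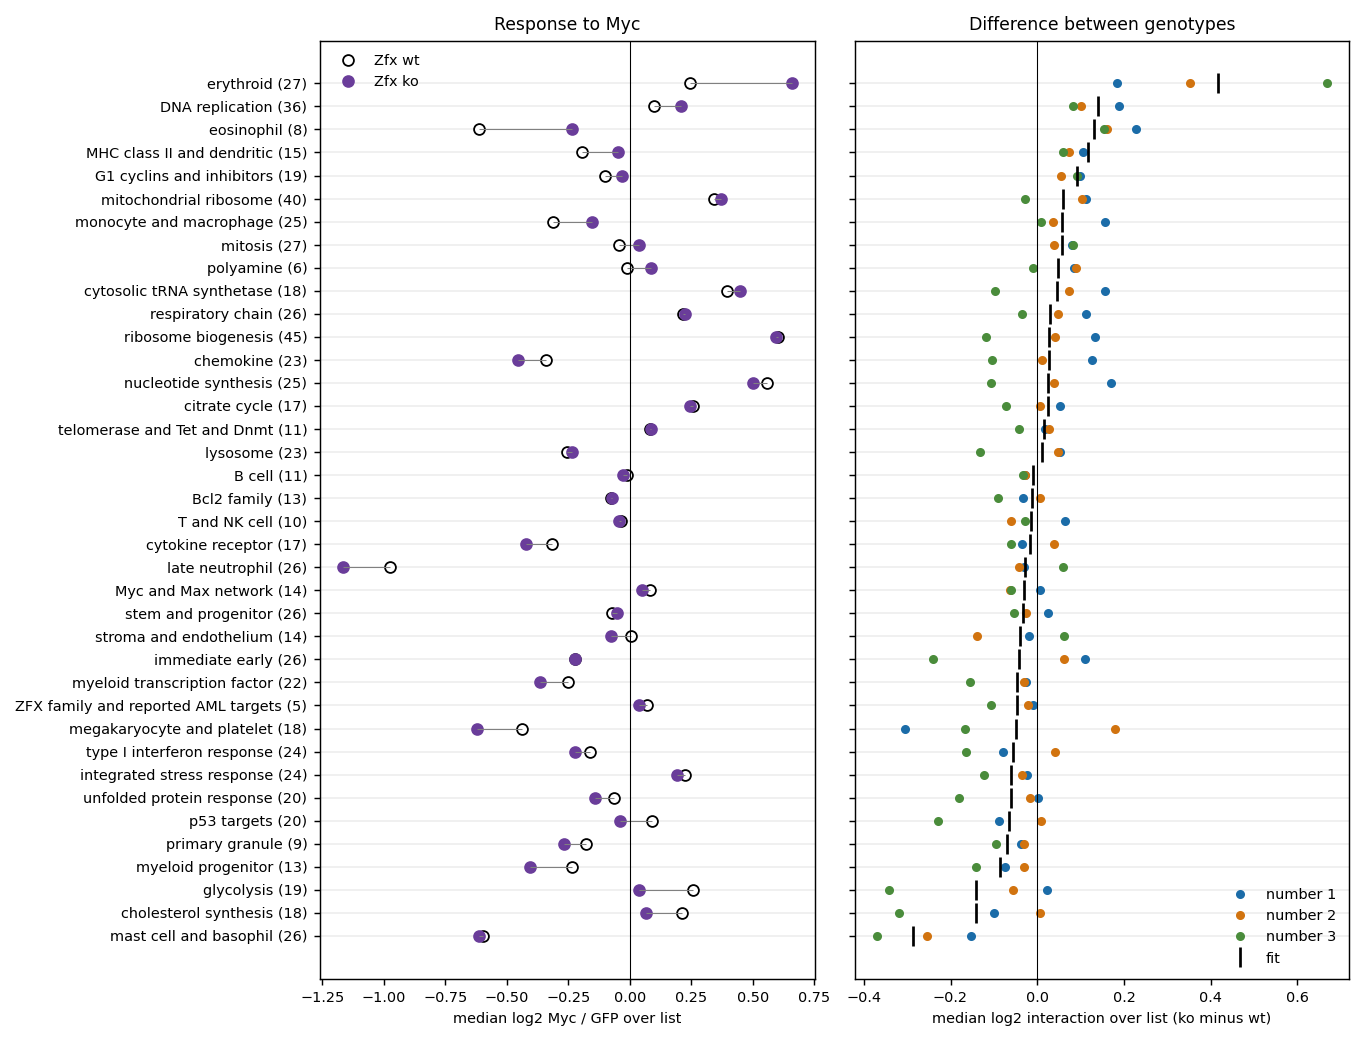
Median interaction (log2, x axis) of each gene list (y axis), in the right panel, with points for the arrays of each number and a bar for the fit, and the median log2 Myc response in each genotype in the left panel (x axis). The erythroid list lies farthest above 0 at 0.42, with 0.18, 0.35 and 0.67 by number, and the list of mast cells and basophils farthest below at -0.29.

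**Figure D5:**
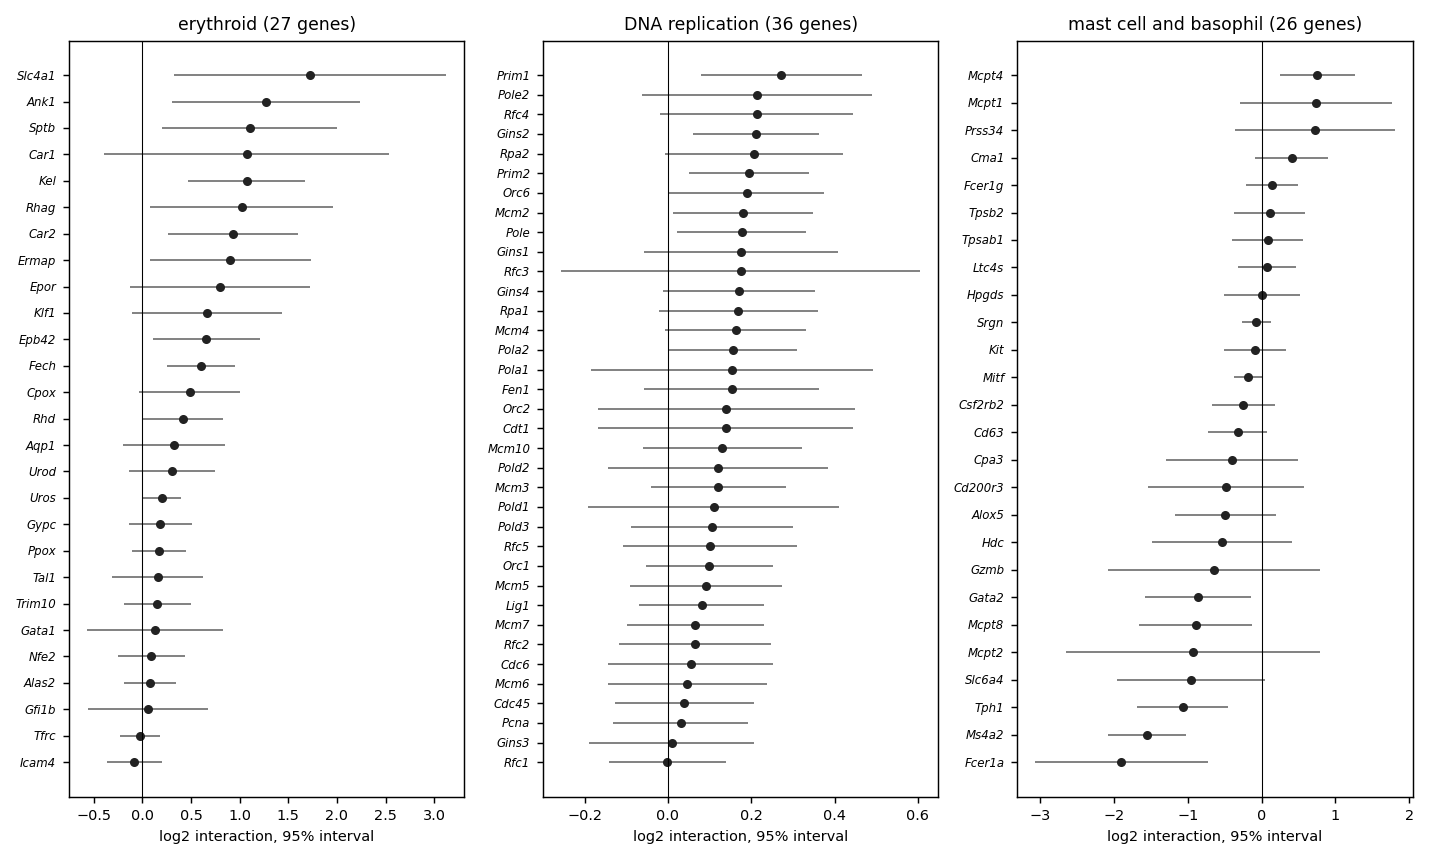
Interaction (log2, x axis) of each member (y axis) of the erythroid, DNA replication, and mast cell and basophil lists; points are estimates and lines their 95% intervals. Of the 36 genes of DNA replication, 35 lie above 0 and none above 0.27, while 25 of the 27 erythroid genes lie above 0 and reach 1.73, and those of mast cells and basophils run from -1.90 to 0.75.

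Other single genes with low unadjusted p, 1 or 2 to a list, are given as values. Zmat3, a target of p53 that binds RNA, read 218, 391 and 212 with GFP and 347, 638 and 462 with Myc in the wt arrays, and 217, 406 and 193 with GFP and 190, 465 and 256 with Myc in the ko arrays. Each wt Myc array was above its GFP counterpart and the ko groups overlapped. Zmat3 rose 1.78-fold in the wt arrays (adjusted p = 0.00182), with a ko response of 0.14 (adjusted p = 0.540) and an interaction of -0.69 (limma adjusted p = 0.827). Over the 20 p53 targets the median was -0.07, with 7 of the 20 above 0, and Zmat3 alone had an unadjusted p under 0.05 in this list.

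Cebpa, a transcription factor that drives granulocyte differentiation, fell 1.55-fold with Myc in the ko arrays (adjusted p = 7.8e-04), with a wt response of -0.23 (adjusted p = 0.0891) and an interaction of -0.40. Fosl2, a member of the AP-1 family, fell 1.39-fold in the wt and 1.81-fold in the ko arrays with an interaction of -0.38. Mycn, a paralogue of Myc, fell 1.60-fold in the ko arrays, with a wt response of -0.20 and an interaction of -0.48. Vldlr, a lipoprotein receptor with a mean level below the median of all probe sets, fell 2.44-fold in the ko arrays. Its wt response was -0.41 and its interaction -0.88. These 4 genes were all higher or lower in the ko arrays with GFP alone, with log2 genotype differences of -0.46, 0.49, 0.81 and 1.12, and none passed the interaction threshold, with limma adjusted p of 0.976 for Cebpa, 0.827 for Fosl2, 0.976 for Mycn and 0.791 for Vldlr. Tet1, which oxidises methylated cytosine, is an example of a large response with close estimates in the genotypes. It rose 3.59-fold in the wt and 3.64-fold in the ko arrays, with an interaction of 0.02. The interval of -0.55 to 0.59 was not within 0.5 log2 of 0, so a difference of that size is not excluded.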

How the data were processed

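RNA of 12 samples (4 groups of 3) was measured on gene arrays, 1 array each. The values are intensities that the authors made with RMA and deposited on a linear scale, per the submitters' processing notes; the RMA version and probe positions were not used here. RMA fits quantile-normalized probes, so a shift common to all genes is removed. Array medians were 127 to 137. Log2 was taken with no pseudocount and no filter on dim probe sets. Of 35556 probe sets, 21789 carry 1 symbol, 1621 carry more and 12146 have no entry in the gene table; the first of these were reduced to the brightest per gene, which left 19938 genes (19856 matched in RefSeq).

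The model was fitted with lmFit and eBayes of limma 3.58.1 (R 4.3.3): 4 group means over all 12 arrays, with the replicate number as a block, 6 residual degrees of freedom, and Benjamini-Hochberg adjustment over all genes at 0.05. Every adjusted p is from this fit unless another setting is named. The number of arrays limits the precision. The labels do not say what equal numbers share. Reading the numbers as pairs was set with the comparison. Arrays of equal number deviated together from their groups, with r from 0.40 to 0.85 (18 pairs, median 0.64). Within groups log2 values correlated at 0.9846 to 0.9926, and 0 pairs were identical. The fit was also run on simulated data in which all groups shared the number effects. That run therefore cannot show whether the block is right for these arrays.

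The comparison, its gene lists and its members were chosen with earlier results of these data known. Named genes are Zfx, Zfy1, Zfy2, Myc, called genes, and, with fewer than 10 calls, the 10 of lowest p; list members and other genes named beyond these were chosen after their values were seen. Predicted, clone-named, small RNA and olfactory receptor genes were not named. Lists were counted and not tested. Alternatives were no block, a random block, second quantile normalization, median centring, a trended and robust prior, array weights, genes above the median of all probe sets, all probe sets, the mean of a gene's probe sets, a minimum of 1 in log2, and leaving out each array or each number.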

Additional observations from a re-analysis of the deposited data

Results flagged for a closer look

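Nck2 had an interaction of -0.80 on the log2 scale, a difference between genotypes that passed the test itself (limma adjusted p = 0.0198). A further 5 genes are listed because every Myc array of 1 genotype was above, and every Myc array of the other below, the GFP array of its own number. That pattern is not a test: 291 of all 19938 genes (1.46%) have it, Nck2 included, and the 49 genes examined here were mostly picked for a low interaction p, which favours it. None of the 5 passed the interaction test over all genes. Zc3h7b had an interaction of -0.72 (limma adjusted p = 0.189), and Ms4a2 one of -1.55 (limma adjusted p = 0.189).

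Cd74, the invariant chain of MHC class II, had an interaction of 0.83 (limma adjusted p = 0.976). It read 418, 1877 and 246 with GFP and 211, 1781 and 209 with Myc in the wt arrays, and 609, 2988 and 320 with GFP and 771, 4558 and 376 with Myc in the ko arrays. The arrays of number 2 were several times above the others in each group. Vcam1, a vascular adhesion molecule also made by macrophages, had an interaction of -0.58 (limma adjusted p = 0.999). It read 420, 371 and 424 with GFP and 523, 485 and 466 with Myc in the wt arrays, and 183, 285 and 201 with GFP and 170, 211 and 157 with Myc in the ko arrays. Dnmt3a, a DNA methyltransferase, had an interaction of 0.40 (limma adjusted p = 0.976). It read 448, 472 and 344 with GFP and 354, 431 and 326 with Myc in the wt arrays, and 430, 483 and 459 with GFP and 558, 537 and 495 with Myc in the ko arrays.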

How the results depend on the processing

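The replicate block treats arrays of equal number as pairs, although the labels do not say what they share. Without the block, limma called 0 genes for the interaction (343 at an unadjusted p under 0.05, 1.72%). It called 1851 for Myc in wt, 2626 for Myc in ko, 819 for Zfx with GFP and 1089 for Zfx with Myc. With a minimum of 1 in log2 the counts were 0, 189, 263, 217 and 283. The interaction had 2 calls after second quantile normalization, 3 with a trended and robust prior and 0 over all probe sets (1352 at an unadjusted p under 0.05). Leaving out arrays gave 0 to 13 interaction calls, 1625 to 4343 for Myc in wt, 2976 to 4922 for Myc in ko, 918 to 2460 for Zfx with GFP and 1096 to 3031 for Zfx with Myc. Without Myc Zfx ko replicate 1 there were 13, of which 12 were higher (among them Lin28b, Arpin, Mrc1 and Pkhd1l1), and without Myc Zfx wt replicate 1 there were 4 (Lgr4, Ms4a2, Nck2 and Tespa1). Nck2 passed in 11 of 24 alternatives, with -0.84 to -0.75 and an adjusted p of 0.0118 to 0.9999, and kept its sign in all 24. Npy passed without GFP Zfx wt replicate 2 (adjusted p = 8.9e-04) and without replicate 2 (adjusted p = 0.0139), and Lgr4 in 4 alternatives. The interaction of Zfx was 0.035 with array weights and -0.15 to 0.043 with arrays left out. The causes were not tested.

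The erythroid median stayed above 0 in all 24 alternatives (0.24 to 0.60), with 4 to 15 members higher at an unadjusted p under 0.05. That of DNA replication was 0.08 to 0.18, and that of mast cells and basophils -0.40 to -0.15. The medians of ribosome biogenesis (-0.08 to 0.10) and late neutrophil genes (-0.18 to 0.21) changed sign, and that of all genes was -0.00 to 0.02.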
